A study of Homo sapiens with 6 samples.

Results

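A set of 7 genes of neuronal splicing, vesicle release and neural development were followed in the deposited comparison of a series on abiraterone-selected and parental prostate cancer cells: SRRM4, SNAP25, CPLX2, SYT4, SCG5, PEG10 and TENM1. They were taken by symbol from its table, which holds 1 row for each of the 7 among 6018 listed genes. The symbols had been selected on the listed fold changes and p-values of this comparison, in which all 7 lay far toward one side. Their fold changes, errors and p-values are therefore a description, with no test. The set mixes roles and is not uniformly neuronal: SRRM4 regulates splicing, SNAP25, CPLX2 and SYT4 act in vesicle fusion, SCG5 in the secretory granule, PEG10 derives from a retrotransposon, and TENM1 is an adhesion protein.

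The series holds 3 libraries of abiraterone-selected C4-2B and 3 of parental C4-2B. C4-2B is an established human prostate cancer line of LNCaP origin that grows under castrate androgen levels. The selected line was passaged in abiraterone, an inhibitor of the androgen-synthesis enzyme CYP17A1, whose concentration rose stepwise, 1 µM at first and 20 µM at last, during 6 months or more; it was then held at 5 µM. It is given as passage 15 to 18. The parental line was passaged beside it in 1% DMSO, yet its libraries are given as passage 0. The medium of both held 10% serum. The extraction text mentions 10 µM abiraterone without saying whether both lines received it, so passage number, drug exposure and line cannot be told apart.

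The values come from a single table, in which the authors set condition C against condition V with DESeq2, with no value per library and no depth per library. Its header calls C control and V vehicle, and gives positive log2 fold changes to genes higher in C. The letter V stands in the titles of the 3 parental libraries. Should the table compare the study's own lines, the selected line would be C by elimination, against the word control in the header. The header ties C to neither line, so each direction is stated by these letters, without translation. The table lists only genes with p below 0.05 and a log2 fold change of 1.20 or more in size. A gene that is not listed may have missed either limit, and nothing follows about its level. Genes with a listed adjusted p under 0.05 are termed called, and a gene called in C or in V is a called gene higher there, a rule that holds for 5380 genes, 89.4% of those listed. The 2771 called genes higher in C are 46% of those listed, and the 934 called protein-coding genes higher in C are 31.6% of the listed protein-coding genes.

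Neurons and neuroendocrine cells store transmitters and peptide hormones in vesicles that fuse with the membrane when calcium enters. Fusion is driven by a bundle of SNARE proteins, to which SNAP25 contributes, and is timed by complexins and synaptotagmins. The granins and their relatives load dense-core granules and help to process prohormones. Outside the nervous system many of these genes are held down by the repressor REST. SRRM4 promotes the inclusion of short neuronal exons, among them one that disables REST. In prostate cancer, SRRM4 and PEG10 are known from tumours that have lost androgen dependence and taken on neuroendocrine features.

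The stretches upstream of the starts of SRRM4, SYT4 and TENM1 are shown first, because these genes differ in the size of their standard errors and fold changes. RefSeq start windows (GRCh38.p14, 250 bases before to 50 after the start) were found for 5 of the 7 genes, in 6 windows; SNAP25 and PEG10 had none in the table used. Each stretch below runs 5′ to 3′ on the strand of the gene and stops where an annotated exon of that gene begins. The distal start of TENM1 lies upstream of the gene's span in GENCODE release 29. Capitals mark the E-box CAGCTG, a letter pattern bound by bHLH factors.
SRRM4, chr12:118981291-118981494, plus strand: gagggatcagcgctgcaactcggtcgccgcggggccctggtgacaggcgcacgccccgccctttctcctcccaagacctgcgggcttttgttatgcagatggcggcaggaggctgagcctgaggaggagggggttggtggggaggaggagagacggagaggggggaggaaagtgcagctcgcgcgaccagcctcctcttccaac
SYT4, chr18:43277651-43277740, minus strand: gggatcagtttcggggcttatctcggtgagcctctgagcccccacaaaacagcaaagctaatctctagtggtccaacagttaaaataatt
TENM1 distal start, chrX:125204313-125204562, minus strand: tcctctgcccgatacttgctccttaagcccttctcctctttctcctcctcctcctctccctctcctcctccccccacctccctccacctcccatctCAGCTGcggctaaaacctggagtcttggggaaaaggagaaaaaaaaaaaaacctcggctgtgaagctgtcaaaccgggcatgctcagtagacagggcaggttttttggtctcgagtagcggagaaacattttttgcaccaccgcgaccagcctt
TENM1 proximal start, chrX:124963818-124964067, minus strand: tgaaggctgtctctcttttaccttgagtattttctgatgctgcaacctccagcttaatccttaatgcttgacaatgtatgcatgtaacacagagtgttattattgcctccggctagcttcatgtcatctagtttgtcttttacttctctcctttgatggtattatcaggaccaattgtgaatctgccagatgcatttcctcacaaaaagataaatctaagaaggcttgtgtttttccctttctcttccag

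In composition, 4 of the 6 windows lay near the median of 58.7% G and C over 35116 windows, whose median count of CpG pairs was 14. They were those of CPLX2 (59% with 8 CpG pairs), SCG5 (58% with 11), the distal start of TENM1 (57.3% with 15) and SYT4 (53.3% with 11). The SRRM4 window had more, 66.7% with 26 CpG pairs, and the proximal TENM1 window less, 39.3% with 1. The letters searched on both strands were TTCAGCACC, the left arm of the REST element, and GGACAGC, the start of its right arm. The other patterns were the E-boxes with CAGCTG or with CAGGTG, the core TGACG of the cAMP response element, and TATAAA, the TATA box. No exact match to TTCAGCACC, GGACAGC or TATAAA lay in any of the 6 windows; over all windows the shares were 0.376% for TTCAGCACC, 6.03% for GGACAGC and 11.5% for TATAAA. The E-box CAGGTG lay in the SYT4 and SCG5 windows and in 20.6% of all windows, and CAGCTG lay in the distal TENM1 window and in 17.9% of all. TGACG occurred 2 times in the SYT4 window and 1 time each in those of SRRM4 and SCG5, and in 24.6% of all windows. These matches describe letters in 300 bases and no more; REST sites can lie outside such windows.

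All 7 genes were called and lay in C per the authors' deposited table, with log2 fold changes from 2.77 to 7.17 and a median of 5.06. The median over the 934 called protein-coding genes higher in C was 1.77. The 7 genes nevertheless fall into groups that differ in level and in certainty. SYT4, PEG10 and TENM1 had high means and standard errors of 0.12, 0.23 and 0.18, the smallest of the 7, though 1.38, 2.79 and 1.75 times the median of called genes with a mean within 2-fold. SRRM4, SNAP25 and CPLX2 had large fold changes with standard errors above 1, and SCG5 had a low mean.

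**Figure D1:**
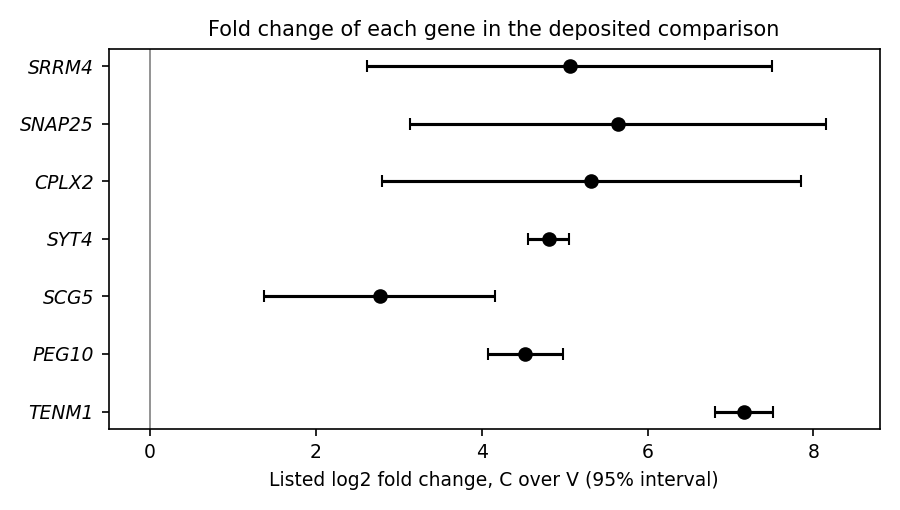
Listed log2 fold change of C over V for the 7 genes (points) with the 95% interval from the listed standard error (bars). SYT4, PEG10 and TENM1 have narrow intervals, whereas those of SRRM4, SNAP25 and CPLX2 each span about 5 log2 units.

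SRRM4 (ENSG00000139767), a splicing activator of neurons, lies at chr12:118981495-119163051 on the plus strand in GENCODE release 29 (GRCh38). In the authors' deposited table it had a mean of 885 normalised counts, a log2 fold change of 5.06 ± 1.25 (listed standard error) and an adjusted p of 0.000187. The 95% interval of the fold change ran from 6.14-fold to 182-fold. Levels per side are not listed; taking both sides as equally large, the table gave 1718 normalised counts in C and 51.5 in V, with no error of their own. Of 504 called genes with a mean within 2-fold of that of SRRM4, 1 had a larger standard error, and their median was 0.10.

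Listed genes inside and beside SRRM4 lay on either side. The transcript RN7SL508P within an SRRM4 intron, on the same strand, was higher in V at -1.29 ± 0.39 in the authors' deposited table. HSPB8, which encodes a small heat shock protein and begins 15.6 kb downstream, was also higher in V at -3.51 ± 0.29 in the authors' deposited table. The next listed protein-coding gene on the other flank, the replication factor RFC5, ended 948 kb upstream and was higher in C at 1.92 ± 0.10 as the authors' deposited table lists it. The antisense gene AC084361.1, which shares 25 exonic bases with SRRM4, was not listed.

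Of the 24 other neuronal splicing regulators examined, 4 were called in C and 2 in V. These are 16.7% and 8.33% of the list, beside 4.68% in C and 9.03% in V over all protein-coding genes of GENCODE release 29. SRRM3, the close relative of SRRM4 that acts on the same kind of exon, stood at 3.36 ± 0.35 in the authors' deposited table, with derived levels of 204 normalised counts in C and 19.8 in V. ELAVL2 (1.57 ± 0.36), an RNA-binding protein of neurons, was also higher in C per the authors' deposited table. RBFOX1 and ELAVL4 were called higher in C at low levels, with derived C levels of 9.75 and 6.10. MBNL2 (-1.50 ± 0.16), which favours the splicing patterns of mature tissue, and KHDRBS3 (-1.96 ± 0.47) were higher in V per the authors' deposited table. None of the 14 genes of the REST complex was listed, REST itself and its corepressor RCOR1 included, so nothing is known here about their levels.

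Among the fusion genes, SNAP25 (ENSG00000132639) encodes the SNARE protein that contributes helices from the plasma membrane side. It lies at chr20:10218830-10307418 on the plus strand, inside the span of SNAP25-AS1, an antisense gene with which it shares 0 exonic bases and which was not listed. Its log2 fold change in the authors' deposited table was 5.64 ± 1.28, with an adjusted p of 4.39e-05 at a mean of 73.8. The derived levels were 145 normalised counts in C and 2.91 in V. The V level is only a few reads, and the 95% interval of the fold change ran from 8.76-fold to 283-fold.

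The other SNARE genes that were called lay on the opposite side. Of 28 further SNARE and assembly genes, 5 were called, each of them higher in V, a share of 17.9% against 9.03% of all protein-coding genes of GENCODE release 29. They were the syntaxins STX3 (-1.28 ± 0.09) and STX1A (-2.26 ± 0.19), the vesicle SNARE VAMP8 (-1.79 ± 0.13) and the priming factors UNC13A (-1.71 ± 0.28) and UNC13D (-3.34 ± 0.58), as listed in the authors' deposited table. STX1A, the plasma membrane partner of SNAP25 at synapses, had derived levels of 65.0 normalised counts in C and 311 in V. VAMP2, the vesicle SNARE of synapses, was not listed.

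CPLX2 (ENSG00000145920), a complexin that clamps and then assists the SNARE bundle, lies at chr5:175796310-175884020 on the plus strand. In the authors' deposited table it stood at 5.32 ± 1.29 with an adjusted p of 0.000141 and a mean of 279. The derived levels were 544 normalised counts in C and 13.6 in V. None of the 867 called genes with a mean within 2-fold had a larger standard error. CPLX1, CPLX3 and CPLX4 were not listed.

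SYT4 (ENSG00000132872), a synaptotagmin of dense-core and other vesicles that lacks the usual calcium response, lies at chr18:43267878-43277650 on the minus strand. Its log2 fold change was 4.81 ± 0.12 at a mean of 1505, with p and adjusted p both listed as 0 in the authors' deposited table. The 95% interval of the fold change ran from 23.7-fold to 33.1-fold, and the derived levels were 2906 normalised counts in C and 104 in V. By the Wald statistic SYT4 ranked 4 among the 934 called protein-coding genes higher in C.

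Of 30 other complexin, synaptotagmin and related genes, 2 were called in C and 3 in V, which is 6.67% and 10% of the list and near the 4.68% and 9.03% over all protein-coding genes. DOC2A (1.20 ± 0.19), a calcium sensor of release, and SYT12 (3.67 ± 0.98) were higher in C per the authors' deposited table. SYTL2 (-3.09 ± 0.09), an effector of RAB27 on secretory granules, was higher in V per the authors' deposited table, with derived levels of 243 normalised counts in C and 2063 in V. SYT5 (-3.78 ± 1.24) and SYTL5 (-3.22 ± 1.07) were higher in V there too. RAB27B (-3.23 ± 0.17), a GTPase that docks secretory granules through such effectors, also lay in V in the authors' deposited table. Of 28 synaptic vesicle and active zone genes, RAB27B included, 2 were called in C and 1 in V. These are 7.14% and 3.57% of the list, beside the same 4.68% and 9.03%. BSN (1.33 ± 0.21), an active zone scaffold, and SYN2 (3.71 ± 0.59), a synapsin, were higher in C per the authors' deposited table. SYP was not listed.

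SCG5 (ENSG00000166922) encodes 7B2, the chaperone that prohormone convertase PCSK2 needs to mature. It lies at chr15:32641676-32697098 on the plus strand and was the least expressed of the 7 genes. Its mean was 6.77 normalised counts and its log2 fold change 2.77 ± 0.71, with an adjusted p of 0.000373 in the authors' deposited table. The derived levels were 11.8 normalised counts in C and 1.73 in V, and the 95% interval ran from 2.59-fold to 17.9-fold. Its upstream neighbour ARHGAP11A, a mitotic GTPase-activating protein that ends 1.73 kb before SCG5 on the same strand, was also higher in C, at 1.42 ± 0.10 as the authors' deposited table lists it, at derived levels of 857 in C and 321 in V. Whether reads running past ARHGAP11A reach SCG5 was not tested.

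Of 15 other granin and prohormone-processing genes, 0 were called in C and 1 in V. These are 0% and 6.67% of the list, beside 4.68% and 9.03% over all protein-coding genes. The gene in V was PCSK1N (-2.77 ± 0.44 in the authors' deposited table), which encodes proSAAS, an inhibitor of the convertase PCSK1. CHGA, CHGB, SCG2, SCG3 and PCSK2 were not listed.

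PEG10 (ENSG00000242265) is a paternally expressed gene derived from a retrotransposon, at chr7:94656325-94669695 on the plus strand. It had the highest mean of the 7, 2129 normalised counts, and a log2 fold change of 4.52 ± 0.23 with an adjusted p of 3.20e-84 in the authors' deposited table. The derived levels were 4080 normalised counts in C and 177 in V, and the 95% interval of the fold change ran from 16.8-fold to 31.4-fold. Its standard error was 2.79 times the median of called genes of like mean.

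PEG10 makes a Gag-like protein from its first reading frame and a longer Gag-Pol-like protein when ribosomes slip back 1 base. The slip site and the stop codon of the first frame (both in capitals) are shown because gene-level counts cannot tell these products apart.
PEG10 slip site, chr7:94664483-94664534, plus strand, GENCODE release 29: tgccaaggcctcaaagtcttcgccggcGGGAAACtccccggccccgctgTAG
The heptamer lies at chr7:94664510-94664516, with 15 bases between it and the stop codon. Among the 7 coding transcripts annotated, 3 carry a gap of 2 bases just before the heptamer, which lets their coding region run on. Their coding regions are 707, 741 and 783 codons long, against 325, 359 and 401 in transcripts that stop at the codon shown. These lengths do not cover all 7 coding transcripts.

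SGCE, a sarcoglycan gene that is also paternally expressed, starts head to head with PEG10 and shares 219 exonic bases with it on the other strand. It was higher in C at 1.62 ± 0.67 with an adjusted p of 0.0382 in the authors' deposited table, with derived levels of 233 normalised counts in C and 75.7 in V. Since the counting is not stated to use strand, reads of the shared bases cannot be assigned to either gene. Of 28 other retroelement-derived genes and neighbours of PEG10, 4 were called in C and 1 in V. These are 14.3% and 3.57% of the list, beside 4.68% and 9.03% over all protein-coding genes. PEG3 (1.23 ± 0.13), another imprinted gene, ARC (2.63 ± 0.31), a capsid-forming gene of neurons, and PNMA3 (1.36 ± 0.30) were higher in C with SGCE, and PNMA1 (-1.22 ± 0.11) lay in V, as the authors' deposited table lists them. PON1, a paraoxonase gene of the same region, was listed at 3.32 ± 1.57 and was not called (adjusted p = 0.0735, DESeq2 as deposited).

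TENM1 (ENSG00000009694), a teneurin that binds latrophilins across cell contacts and guides neuronal wiring, lies at chrX:124375903-124963817 on the minus strand. It had the largest fold change of the 7: 7.17 ± 0.18 at a mean of 852, with p and adjusted p listed as 0 in the authors' deposited table. The 95% interval of the fold change ran from 113-fold to 183-fold. The derived levels were 1693 normalised counts in C and 11.8 in V. Among the 934 called protein-coding genes higher in C it ranked 6 by fold change and 2 by the Wald statistic. The pseudogene Z85995.1 within a TENM1 intron, on the same strand, was also higher in C at 6.59 ± 1.78 in the authors' deposited table, with a mean of only 2.85. STAG2, which shares 241 exonic bases with TENM1 on the other strand, was not listed.

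Of 11 other teneurin, latrophilin and related genes, 1 was called in C and 2 in V. These are 9.09% and 18.2% of the list, beside 4.68% and 9.03% over all protein-coding genes. TENM2 (2.80 ± 0.65) was higher in C per the authors' deposited table, with derived levels of 64.7 normalised counts in C and 9.30 in V. TENM4 (-2.49 ± 0.95) was higher in V there at low derived levels, 2.10 in C and 11.8 in V. TENM3 was not listed. Of the other genes in this set, the latrophilins ADGRL1, ADGRL2 and ADGRL3 were not listed. FLRT1 (-3.98 ± 1.36) was higher in V at a derived level of 7.50 normalised counts in the authors' deposited table.

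Per kilobase of exon, the order of the derived C levels was SYT4 at 655 normalised counts, PEG10 at 610, SRRM4 at 194, TENM1 at 131, CPLX2 at 76.7, SNAP25 at 43.1 and SCG5 at 5.38. In V the order was PEG10 at 26.5, SYT4 at 23.4, SRRM4 at 5.81, CPLX2 at 1.92, TENM1 at 0.914, SNAP25 at 0.866 and SCG5 at 0.790. These levels have no error, so neighbours in either order cannot be separated.

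**Figure D2:**
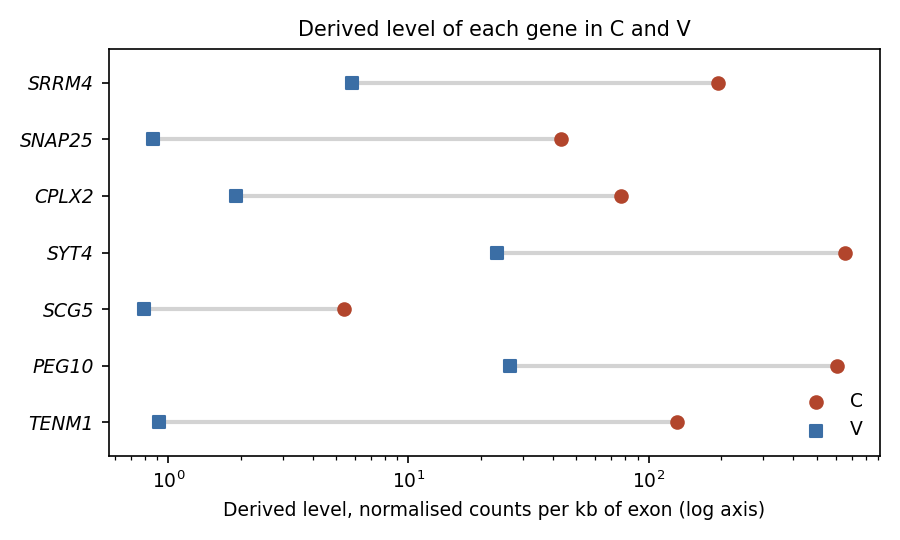
Derived level of each gene in C (circles) and V (squares) in normalised counts per kilobase of exon, on a log axis. SYT4 and PEG10 are highest on both sides, and TENM1 spans the widest distance, at 131 in C and 0.914 in V.

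The standard errors divide the 7 genes. A standard error of a log2 fold change holds counting error and the spread between libraries. With 3 libraries taken on each side, the listed values correspond to a coefficient of variation between libraries of 105% for SRRM4, 100% for SNAP25 and 108% for CPLX2. The same calculation gave 7.83% for SYT4, 18.8% for PEG10 and 18.7% for SCG5. For TENM1 it gave a negative variance, so no value is reported. There the listed standard error was below the counting error that the calculation assumes, so that assumption failed for TENM1. The calculation makes the same assumption for the other genes, so their values are approximate. The value for SCG5, with a derived V level of 1.73, depends strongly on the same assumption and is less certain than that for PEG10. The small value for SYT4 also depends on it. SRRM4, SNAP25 and CPLX2, with PEG10, had a standard error in the top 5% of called genes with a mean within 2-fold. Only 24 of 1566 called protein-coding genes with a mean of at least 50 had a squared coefficient of variation of 0.5 or more, 14 higher in C and 10 higher in V, and these 3 genes are among them. Which libraries carry this spread cannot be seen without values per library.

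**Figure D3:**
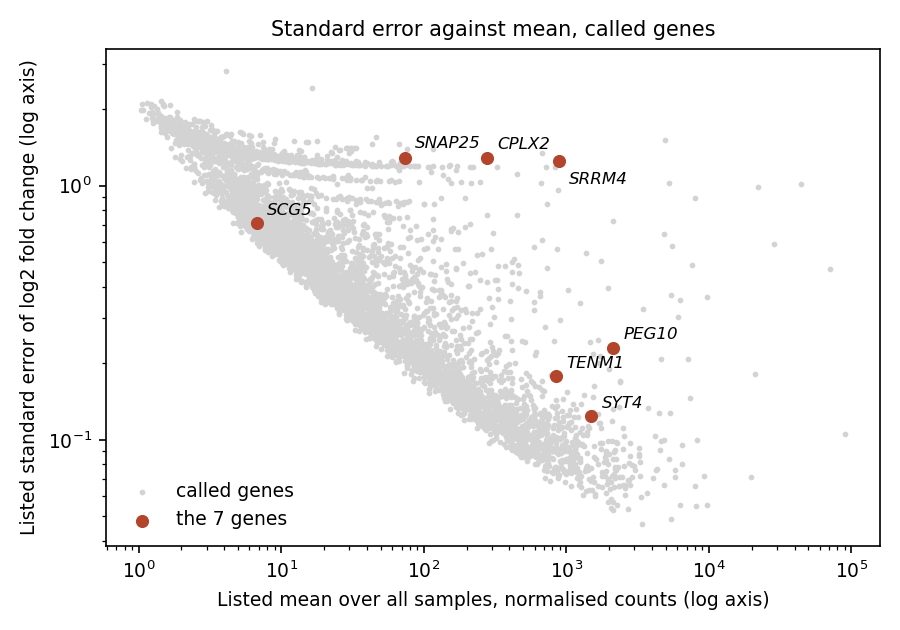
Listed standard error of the log2 fold change against the listed mean over all samples for called genes (grey) and the 7 genes (red), both axes log. SRRM4, SNAP25 and CPLX2 lie far above the bulk at their means, and SCG5 lies within it. Of called genes with a mean within 2-fold, 4.19% had a larger standard error than PEG10, 7.59% than TENM1 and 15.9% than SYT4.

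Called genes of the wider lists lay on both sides. Leaving out the 7 genes, which had been chosen for lying toward C, lowers the count in C. Over the 10 lists of splicing, vesicle, granule, teneurin, retroelement and neuroendocrine genes, with the 7 genes left out, 37 of 226 genes were called, of which 16 lay in C and 21 in V. These are 7.08% and 9.29% of the lists, against 4.68% and 9.03% of all 19951 protein-coding genes of GENCODE release 29. The median log2 fold change of the 37 was -1.50, against -1.55 over the 2736 called protein-coding genes. Among the 26 neuroendocrine lineage factors, NEUROD1, INSM1 and POU3F2 were not listed. Of the 26, 1 was called higher in C, ATOH1 at a mean of 2.35, and 2 were higher in V, POU2F3 and PROX1. These are 3.85% and 7.69% of that list. Of 25 neuroendocrine and neuronal markers, 2 were called in C and 4 in V, which is 8% and 16% of the list. The summed derived levels of those called were 863 normalised counts in C and 174 in V, with 842 of the C sum from 1 gene. The somatostatin receptor SSTR2 (1.44 ± 0.58) was among those higher in C per the authors' deposited table. CXCR2, CEACAM5, CALCA and L1CAM were higher in V there. CHGA, SYP, ENO2 and NCAM1, the usual markers of neuroendocrine cells, were not listed.

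**Figure D4:**
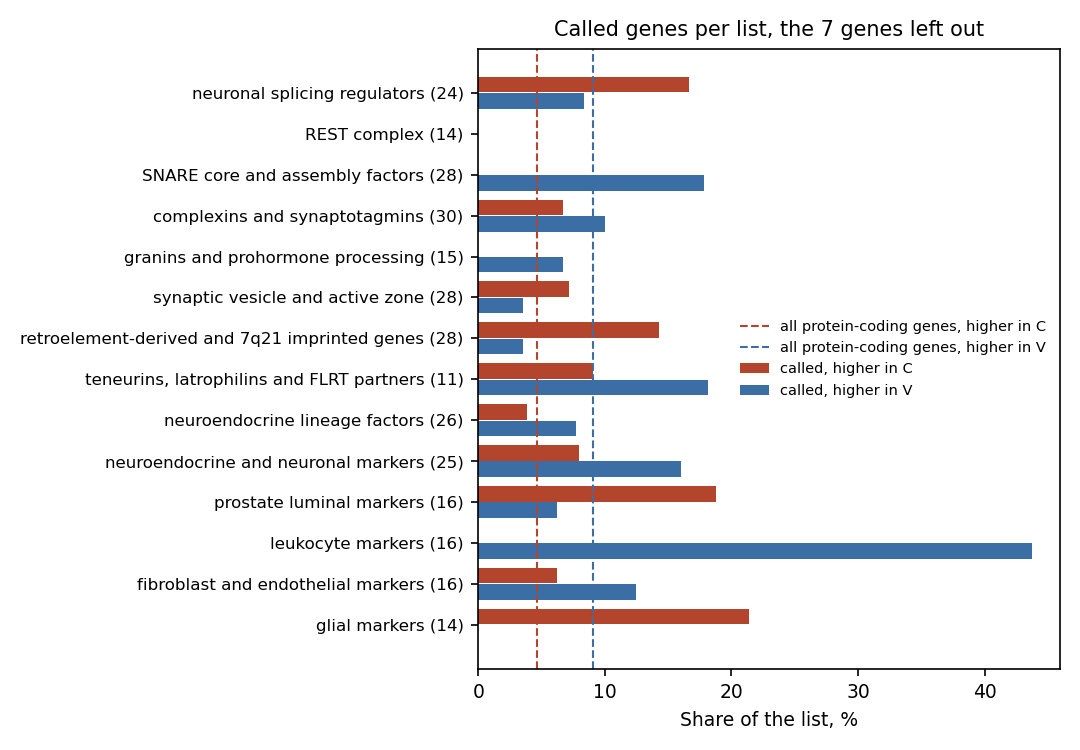
Share of each list that was called in C (red, upper bar) and in V (blue, lower bar), the 7 genes left out, with list sizes in brackets. Dashed lines mark 4.68% and 9.03%, the shares of all protein-coding genes called in C and in V; the SNARE list has calls in V alone and the splicing list more in C.

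Markers of other cells were checked beside these results. Over all protein-coding genes of GENCODE release 29, 4.68% were called in C and 9.03% in V. Of 16 luminal prostate markers, 3 were called in C and 1 in V (18.8% and 6.25% of the list). The summed derived levels of those called were 19721 normalised counts in C and 7675 in V. KLK3, which encodes prostate-specific antigen, had derived levels of 15170 in C and 3363 in V, and KRT8, a luminal keratin, 1364 in C and 3715 in V. Of 14 glial markers, 3 were called, all higher in C, with a summed derived level of 69.8 normalised counts in C and 3.11 in V, SLC1A2 and GFAP among them. AQP4 and OLIG1 were listed and not called, and the other 9, SOX10 and MBP among them, were not listed. Of 16 leukocyte markers, 7 were called, all higher in V (43.8% of the list), with summed derived levels of 2.30 in C and 101 in V. Of 16 fibroblast and endothelial markers, 1 was called in C and 2 in V (6.25% and 12.5% of the list). The summed derived levels of those called were 82.7 in C and 312 in V. The part of such genes in the results was not tested. In bulk samples, more cells with a transcript and more transcript per cell cannot be told apart.

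Likeness was measured as the distance between log2 fold change and log2 mean over this single comparison, among called protein-coding genes. The nearest to SNAP25 were ZNF492 (distance 0.29) and AKAP12 (0.66), and those nearest to SCG5 were TXLNB (0.09) and STAB1 (0.10). SRRM4 and SYT4 both had RPS4Y1 (0.20 and 0.93) and LGR5 (0.57 and 1.17) as their nearest. LGR5, a receptor of epithelial stem cells, had a standard error of 1.35, against 1.25 for SRRM4. CPLX2 was nearest to DDX3Y (0.41) and TTN (0.87), PEG10 to APLN (1.25) and then RPS4Y1, and TENM1 to RPS4Y1 (1.91) and USP9Y (2.49). RPS4Y1, DDX3Y and USP9Y lie on the Y chromosome. On the chromosome, the next listed protein-coding genes beside SNAP25 and SYT4 were 2702 kb or more away, those beside CPLX2 (HRH2 and SNCB) and TENM1 (SOWAHD and TEX13C) were not called, and FMN1, a formin gene 68.4 kb beyond SCG5, stood at -2.70 ± 0.24 in the authors' deposited table.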

How the data were processed

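RNA sequencing libraries (1 µg of total RNA, 50 bp single-end reads) were grouped by the cell line label. The only file is a table that the authors made with DESeq2, per the file headers. Its mean of normalised counts is a signal value computed by the authors, per the file headers. The authors' log2 values, per the file headers, are fold changes, C over V. Their standard errors and Wald statistics are score columns of the authors. The p-value and its Benjamini-Hochberg adjustment were likewise deposited by the authors. The submitters' processing notes name FastQC and Cufflinks 2.2.1 but no role for them. The genome build, aligner and counter are not given in the sources used. The labels' protocols name 2 library kits, of which 1 is stranded. The labels do not say that libraries came from separate cultures, so listed p-values may reflect technical spread alone.

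No test was run on the table. Of 6018 identifiers, 5935 are in GENCODE release 29. Adjusted p was read as not given for 4 genes with an adjusted p of 0 beside p above 0. Wald p-values recomputed from the statistic lay within 1% of the listed ones for 5989 of 5989 genes with p above 0. Derived levels solve for the side means from the listed mean (their average) and fold change (their ratio). Where the lower level is near 0, the default of DESeq2, the tool the authors used, bounds the fitted count at 0.5, and the smallest listed errors of such genes correspond to 2.99 libraries in C and 2.91 in V at zero dispersion. The algebra of these derivations was checked by a round trip on made-up inputs without noise, which does not test their precision (Python 3.11.15, pandas 2.3.3). The members, the lists and the rule for named genes (the 7 genes, at most 4 genes per list with values and others by name, the 2 nearest genes in fold change and mean, chromosomal neighbours) were chosen with earlier results of these data known. Genes named for a neighbour's or an error's sake, such as LGR5, follow that rule. Symbols were matched to identifiers by the gene name table. The alternatives tried were stricter adjusted p, fold, mean, interval and level limits, other library weights and other sets of genes for ranking the errors. Some items withheld from this text are not reported here.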

Additional observations from a re-analysis of the deposited data

How the results depend on the processing

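All 7 genes were called and higher in C with an adjusted p under 0.01 or 0.001, a log2 fold change of 2 or more in size, a 95% interval beyond 1 on the log2 scale and a lower derived level of at least 1. A mean of at least 50 removed SCG5, and one of at least 100 removed SCG5 and SNAP25. The called genes of the 10 lists numbered 37. With a log2 fold change of 2 or more in size there were 24 (9 higher in C, 15 higher in V). A mean of at least 50 left 15 (6 and 9), and one of at least 100 left 13 (5 and 8). The other settings gave 27 to 32, with more calls in V than in C in each. Over all protein-coding genes, calls in V (1802) likewise outnumbered calls in C (934) at the main setting. The number of genes whose standard error was in the top 5% for its mean was 4 in each of the 3 settings. Library weights of 2 to 1 either way moved 12 of 28 derived levels by more than 1 listed standard error of the fold change. The other 16 stayed within it. The 12 belong to SYT4, PEG10 and TENM1, whose standard errors are the smallest, so this limit does not rank the levels by stability. Between these weights the C level ran from 1307 to 2504 for SRRM4 and from 2218 to 4214 for SYT4. Leaving out each library was not run, and no paired analysis was possible because the table has no column per library. A low mean limits SCG5, the V level of SNAP25 and the low-level genes of the lists.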
